A study of Mus musculus with 12 samples.

Results

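Effector cytokine genes, 10 in number, were followed in mouse CD8 T cells: Ifng, Tnf, Il2, Il3, Csf2, Lta, Lif, Inhba, Fasl and Il1a. They were chosen by name, as secreted or membrane-bound cytokines of activated CD8 T cells. No cut on a measured value was applied, but earlier results of these data were known when they were chosen. They are 10 of 46603 genes in the count table and 10 of the 13167 genes that had enough reads to be tested. RNA was read in 12 libraries, 2 for each of 6 groups. All cells came from the spleens of OT-I/Cas9 mice, which carry a transgenic T cell receptor for an ovalbumin peptide and express the nuclease Cas9 constitutively. All had been activated on antibodies to CD3 and CD28 before a retrovirus delivered a guide RNA and puromycin removed cells without it, and all were kept in medium with IL-2 (10 ng/mL), IL-7 (0.5 ng/mL) and IL-15 (1 ng/mL). KO cells had received a guide against Tmed10, which encodes a cargo receptor of vesicles between the endoplasmic reticulum and the Golgi, together with vehicle. AGN192403 cells had received a control guide and 100 µM of AGN192403, an imidazoline receptor ligand, for 24 h. Control cells had received a control guide and vehicle (water). Each of these was sampled after 24 h on coated antibody to CD3 (2.5 µg/mL), called activated, or without it, called resting. Resting cells were therefore previously stimulated cells without renewed stimulation, and the KO cells were a pooled transduced population, not a clone. The labels do not say whether the 2 libraries of a group were separate cultures or separate mice, so that the p-values may measure technical spread alone.

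These genes encode the short-range signals that a CD8 T cell releases or displays once its receptor has bound antigen. Interferon gamma and the TNF family act on the target cell and on neighboring cells, IL-2, IL-3 and GM-CSF act as growth factors, and LIF, activin A and IL-1 alpha act on tissue and on other immune cells. Their transcription is driven by NFAT, AP-1 and NF-kappa B, which act downstream of the T cell receptor, and many of their mRNAs carry AU-rich elements in the 3′ untranslated region (UTR), which proteins of the ZFP36 family bind to shorten the life of the mRNA. Regnase and Roquin proteins do so at stem-loops in the same regions. Most of the proteins pass through the endoplasmic reticulum and Golgi, whereas IL-1 alpha has no signal peptide and leaves the cell by another route. The counts are of RNA and hold nothing on protein or on release.

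Total counts ran from 9089350 to 16481840 per library, and 16673 to 17842 genes had at least 1 count. Levels are given as CPM, read counts relative to library size, scaled by the trimmed mean of M values (TMM). Tmed10 had 55.9 and 58.3 CPM in activated KO cells, 135 and 144 CPM in activated AGN192403 cells and 128 and 125 CPM in activated control cells. At rest it had 61.5 and 65.1 CPM in KO, 133 and 138 CPM in AGN192403 and 116 and 117 CPM in control cells. It fell by 1.15 ± 0.0525 on the log2 scale in activated KO cells (SE, adjusted p = 6.85e-14) and by 0.89 ± 0.0525 in resting KO cells (adjusted p = 2.08e-11), with the reads of edited transcripts still counted. With AGN192403 it was higher, by 0.14 ± 0.0465 in activated (adjusted p = 0.018) and 0.22 ± 0.0476 in resting cells (adjusted p = 0.00123). Cd8a stood at 633 to 773 CPM and Cd4 at 0.520 to 1.17 CPM over the 6 group means. The 11 markers of CD8 T cells, mostly Gzmb, summed to means of 21431, 16460 and 23214 CPM in activated KO, AGN192403 and control cells. At rest these sums were 12157, 11790 and 13208 CPM. In control cells Gzmb rose from 9629 to 20004 CPM on activation, and Cd3e fell from 583 to 248 CPM. The 5 markers of CD4 T cells summed to 63.3 to 65.8 CPM in activated KO, 81.4 to 89.7 CPM in activated AGN192403 and 49.3 to 51.7 CPM in activated control libraries, mostly from Zbtb7b and Gata3. The 7 markers of B cells, mostly Ighm, summed to 31.9 to 40.4 CPM in activated and 137 to 164 CPM in resting libraries. Markers of natural killer cells summed to at most 1.70 CPM in any library. In bulk RNA, fewer cells that express a gene and less RNA per cell cannot be told apart.

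The sequences that bear on these genes are shown first, beginning with the AU-rich elements, because they set the members apart from one another. Each window holds 30 bases of a 3′ UTR in the GENCODE vM21 annotation (GRCm38), chosen as the window with the most copies of the pentamer ATTTA, and the capitals mark the pentamers, which may overlap by 1 base. The windows lie at chr11:54247324-54247353 (minus strand) for Csf2, chr17:35199677-35199706 (minus) for Tnf, chr3:37121039-37121068 (minus) for Il2, chr10:118445333-118445362 (plus) for Ifng, chr2:129300098-129300127 (minus) for Il1a and chr1:161780762-161780791 (minus) for Fasl.
Csf2: aaatATTTATTTATTTATTTATTTAttttt
Tnf: tATTTAttATTTATTTAttATTTATTTAtt
Il2: tATTTATTTAaatATTTAactttaATTTAt
Ifng: ctATTTAttaatATTTAaaactATTTAtat
Il1a: gtATTTAtaaatatATTTAtgataattata
Fasl: aatacaactagtATTTAtgctctgaacatc
The Csf2 and Tnf windows held 5 pentamers each, that of Il2 4, that of Ifng 3, that of Il1a 2 and that of Fasl 1. Over the whole 3′ UTR all 10 members held the pentamer, against 65% of 20985 protein-coding genes, and 6 of 10 held the longer form TTATTTATT, against 7.60% of those genes. Per kilobase of 3′ UTR the density was 28.4 pentamers in Csf2, 12 in Il2, 10.5 in Tnf, 9.90 in Il3 and 9.51 in Ifng. It was 5.24 in Lta, 4.67 in Inhba, 2.72 in Il1a, 2.20 in Lif and 1.13 in Fasl, against a median of 1.23 over all those genes. Fasl was thus the only member below the median. The 3′ UTRs of Inhba (4492 bases) and Lif (3180 bases) were long, so that their 21 and 7 pentamers were thinly spread, while the 317 bases of Csf2 held 9. The annotated 3′ UTR of Il3 had only 101 bases, so that its density rests on 1 pentamer. These are counts of letters and say nothing of which protein binds.

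**Figure D1:**
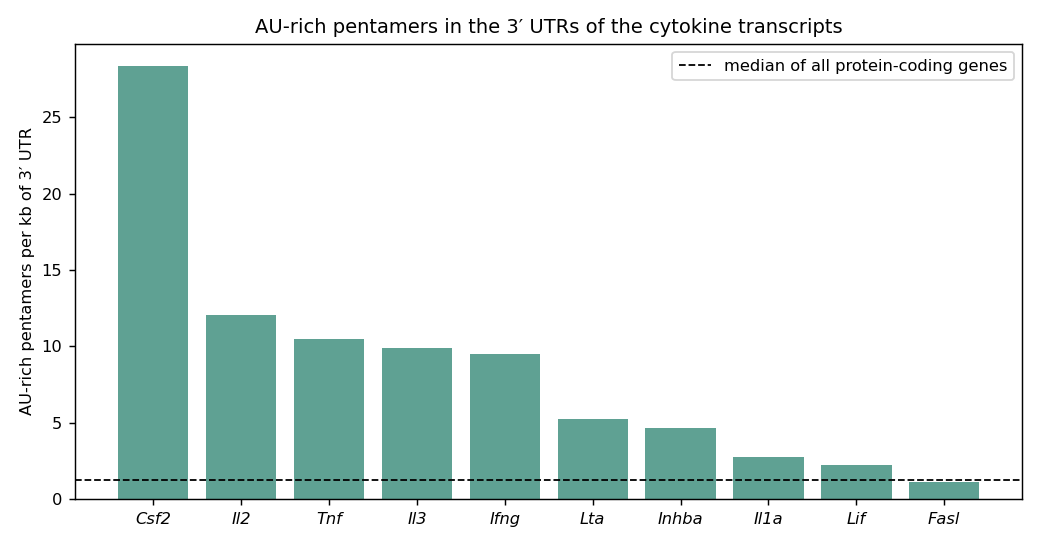
Copies of the pentamer ATTTA per kilobase of 3′ UTR for the 10 effector cytokine genes (bars), with the median of 20985 protein-coding genes as a dashed line at 1.23. Csf2 stands highest at 28.4 per kilobase, and Fasl at 1.13 is the member below the line.

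Promoters came from the RefSeq annotation of GRCm38.p6, as 250 bases before and 50 after the start of each gene, and were found for all 10 members. The 4 shown belong to the gene with the most RNA (Ifng, chr10:118440796-118441095, plus strand), to Il2 (chr3:37125905-37126204, minus), a gene without a read at rest, and to the genes with the largest rise and the largest fall in KO and AGN192403 cells, Il1a (chr2:129309923-129310222, minus) and Lif (chr11:4257318-4257617, plus). Capitals mark the letters GGAAA, the core of an NFAT site, read on either strand. They also mark TGANTCA, the letters of an AP-1 site, and TATAAA, those of a TATA box, and no match overlaps another.
Ifng: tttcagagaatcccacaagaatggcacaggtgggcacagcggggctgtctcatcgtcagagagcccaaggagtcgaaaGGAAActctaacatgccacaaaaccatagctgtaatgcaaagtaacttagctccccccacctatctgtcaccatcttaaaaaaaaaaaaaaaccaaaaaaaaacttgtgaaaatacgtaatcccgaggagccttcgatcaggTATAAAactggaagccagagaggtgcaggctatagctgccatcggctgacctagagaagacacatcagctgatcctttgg
Il2: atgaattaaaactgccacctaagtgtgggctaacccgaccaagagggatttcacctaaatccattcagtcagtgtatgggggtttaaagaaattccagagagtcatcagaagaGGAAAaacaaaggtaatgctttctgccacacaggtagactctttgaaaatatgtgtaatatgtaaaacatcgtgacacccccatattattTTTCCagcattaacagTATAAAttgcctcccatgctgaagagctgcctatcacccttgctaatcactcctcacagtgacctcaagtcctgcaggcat
Il1a: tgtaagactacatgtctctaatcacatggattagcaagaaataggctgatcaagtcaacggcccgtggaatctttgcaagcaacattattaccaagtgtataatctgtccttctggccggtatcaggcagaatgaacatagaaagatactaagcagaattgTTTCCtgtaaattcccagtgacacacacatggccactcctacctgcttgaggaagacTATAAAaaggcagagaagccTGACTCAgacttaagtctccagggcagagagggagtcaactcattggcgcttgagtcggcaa
Lif: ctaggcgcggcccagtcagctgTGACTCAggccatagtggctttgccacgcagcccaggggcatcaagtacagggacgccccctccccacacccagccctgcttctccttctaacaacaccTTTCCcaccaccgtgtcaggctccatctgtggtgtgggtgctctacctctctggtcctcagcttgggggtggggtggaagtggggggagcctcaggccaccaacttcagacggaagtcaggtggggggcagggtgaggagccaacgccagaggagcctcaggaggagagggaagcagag
The NFAT core letters stood in all 10 promoters, and in 61.3% of 27025 promoters of the same length. TATAAA stood in 6 of 10 (8.88% of all promoters), namely Ifng, Tnf, Il2, Lta, Inhba and Il1a, and in 4 of these, Ifng, Tnf, Il2 and Il1a, it began 29 to 32 bases before the start. TGANTCA stood in Il1a, from 12 bases before the start, and in Lif, from 228 bases before it, that is in 2 of 10 members against 7.93% of all promoters. The kappa B consensus was in none of the 10 windows and in 4.35% of all promoters. Enhancers further off were not searched. The Csf2 window in these counts (chr11:54249850-54250149, minus) lies wholly upstream of its GENCODE gene (chr11:54247271-54249667), since the 2 annotations place its start differently.

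Some members are neighbors on a chromosome. Tnf (chr17:35199381-35202007) and Lta (chr17:35203165-35205351) lie 1157 bases apart on the minus strand, next to Ltb, and Csf2 (chr11:54247271-54249667) and Il3 (chr11:54265303-54267277) lie 15635 bases apart, also on the minus strand. The others have no second member next to them. Ifng lies at chr10:118441046-118445892 (plus), Il2 at chr3:37120523-37125959 (minus) and Lif at chr11:4257557-4272514 (plus). Inhba lies at chr13:16011851-16031621 (plus), Fasl at chr1:161780689-161788495 (minus) and Il1a at chr2:129299610-129309972 (minus). Some of them do lie next to cytokine or TNF family genes that are not members. Osm lies 16530 bases from Lif, Il1b 54597 from Il1a, Il21 96799 from Il2 and Tnfsf18 275398 from Fasl. Values below are for the whole gene, as reads over its exons.

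Ifng led every activated group. Per kilobase of exon its level was 2981 CPM in activated KO cells, 2247 CPM in activated AGN192403 cells and 3522 CPM in activated control cells, and it took 74.7% to 75.2%, 73.0% to 73.5% and 77.9% to 78.3% of the reads of the 10 members in those groups. Il3 came next in all 3, with 340, 245 and 290 CPM per kilobase. Lta followed at 202, 204 and 173, Csf2 at 145, 145 and 97.1, Lif at 85.9, 54.7 and 120 and Tnf at 70.1, 77.9 and 64.1 CPM per kilobase in KO, AGN192403 and control cells. The low end held Fasl (39.3, 35.7 and 37.8), Il2 (18.2, 11.5 and 13.9), Il1a (15.6, 11.7 and 4.83) and Inhba (9.77, 6.18 and 8.19). In control cells the order ran Ifng, Il3, Lta, Lif, Csf2, Tnf, Fasl, Il2, Inhba and Il1a, and the libraries of neighbors in that order did not overlap. Lif stood above Csf2 in control cells and below it in KO and AGN192403 cells, and Il1a, last in control cells, stood above Inhba in the other 2 groups. The one pair of neighbors whose libraries overlapped in an activated group was Il1a and Il2 with AGN192403.

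**Figure D2:**
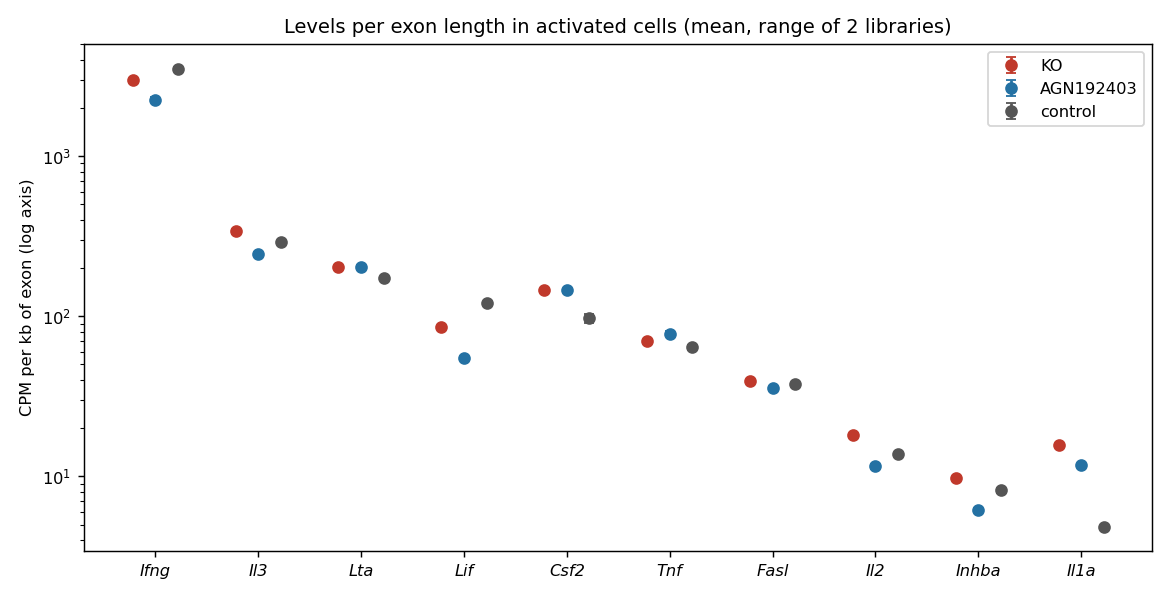
Level of each effector cytokine gene per kilobase of exon (CPM per kb, log axis) in activated KO, AGN192403 and control cells. Ifng is highest in each group at 2981, 2247 and 3522 CPM per kb, and Il1a in control cells is lowest at 4.83.

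Renewed activation raised 9 of the 10 genes in each of the 3 conditions and lowered Fasl. A gene was called where its Benjamini-Hochberg adjusted p from the edgeR quasi-likelihood test, taken over all 13167 genes, was under 0.05. Activation called 73.7% of all genes in KO cells (37.2% higher, 36.5% lower), 70.0% with AGN192403 (33.9% higher, 36.1% lower) and 73.8% in control cells (36.4% higher, 37.4% lower). The median log2 change of the 10 members, with genes near 0 reads at rest entered at their count ratio or bound, was 6.25, 5.86 and 5.11 in these 3 conditions, against 0.01, -0.01 and -0.02 over all genes. Each member median rests in part on such a bound, so the 3 medians are lower bounds and do not rank the conditions. As a share of all counts the members held 0.497% to 0.511% in activated KO, 0.392% to 0.412% in activated AGN192403 and 0.565% to 0.581% in activated control libraries. At rest they held 0.0483% to 0.0486%, 0.0507% to 0.0520% and 0.0487% to 0.0499%.

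Il2, Il1a, Inhba and Il3 were at or near 0 reads at rest, where 3 counts over a group correspond to 0.118 CPM in KO, 0.128 CPM in AGN192403 and 0.129 CPM in control cells. The first 2 had 0 counts in all 6 resting libraries. Against that floor of 3 counts per group, activated Il2 was at least 175-fold higher in KO, 104-fold with AGN192403 and 123-fold in control cells, and Il1a at least 259-fold, 181-fold and 73.8-fold. Inhba, which encodes the subunit of activin A, had 3 resting counts in KO cells, a ratio of 528 (95% interval 180 to 2563, counting error only), 1 count with AGN192403, a ratio of 929 (166 to 36736), and 0 in control cells, where activated cells were at least 405-fold higher. Il3 had 2, 4 and 1 resting counts in KO, AGN192403 and control cells, and ratios of 2683 (742 to 22163), 907 (354 to 3331) and 4231 (759 to 167170). With 1 resting library left out the floor rises by construction. The lowest bounds were then 63.3, 41.8 and 53.0 for Il2 and 93.4, 72.9 and 31.8 for Il1a in KO, AGN192403 and control cells, and 191, 185 and 175 for Inhba, each without 1 of the 2 resting libraries. For Il3 in control cells the value was at least 608 without resting control library 2. The intervals of the ratios overlap one another, so that the activation of Il3 and Inhba cannot be ranked between conditions.

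The other 6 genes were read in both states. Ifng rose by 9.20 log2 units in KO cells, 8.75 with AGN192403 and 9.14 in control cells, that is 589-fold, 431-fold and 565-fold. Csf2 rose 33.0-fold, 32.8-fold and 16.1-fold. Tnf, Lta and Lif already had 60.6 to 178 CPM at rest and rose far less, Tnf by 0.91, 0.93 and 0.54, Lta by 0.88, 0.70 and 0.68 and Lif by 1.16, 0.50 and 1.56 log2 units in KO, AGN192403 and control cells. Fasl, the death ligand of the TNF family, was the exception and fell by 0.24 in KO (adjusted p = 0.000103), 0.28 with AGN192403 (adjusted p = 2.58e-05) and 0.20 log2 units in control cells (adjusted p = 0.000979).

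**Figure D3:**
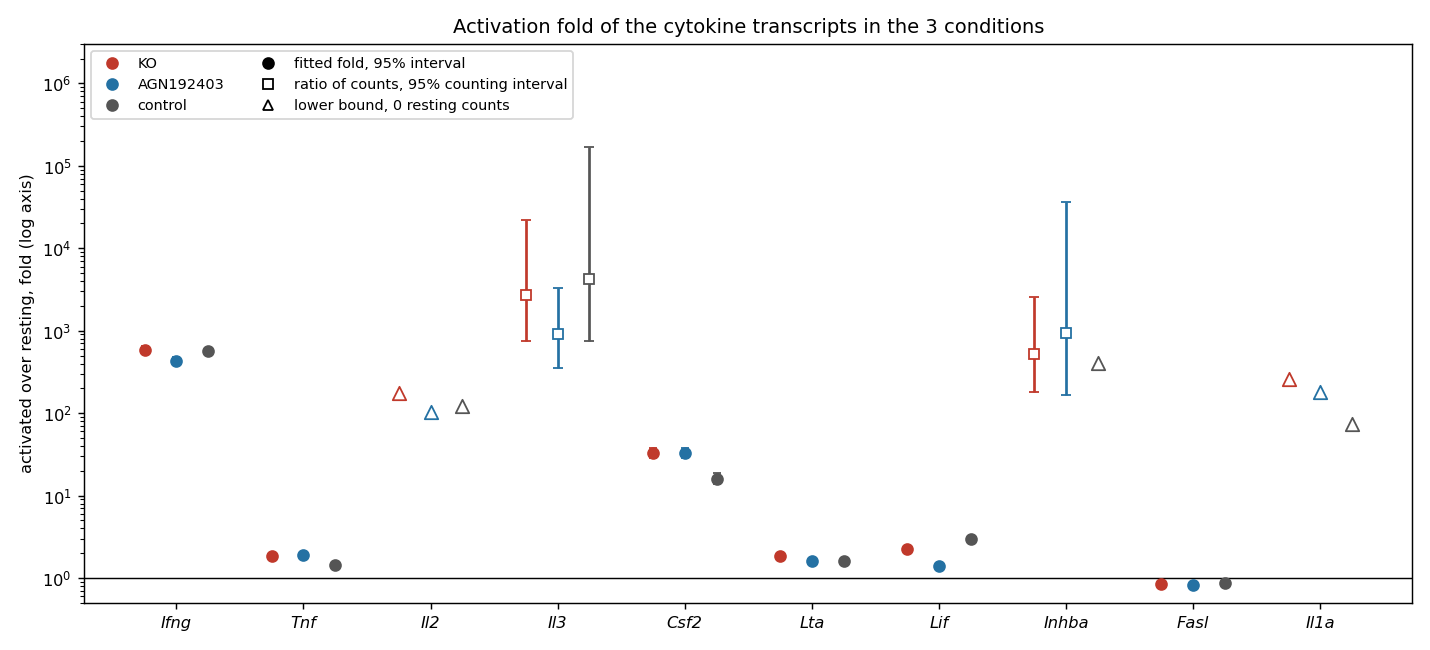
Activated over resting level (fold, log axis) of each effector cytokine gene in KO (red), AGN192403 (blue) and control (grey) cells. Circles are fitted fold changes, squares are ratios of counts for genes with few resting reads and triangles are lower bounds. All but Fasl lie above 1, and Fasl lies just below it in all 3.

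In activated cells, the members parted in direction and size between the 2 perturbations. In KO against control cells 6 of 10 were higher (Il1a, Csf2, Il2, Inhba, Il3 and Lta), 2 were lower (Lif and Ifng) and Tnf and Fasl were not called. Of all genes 19.6% were called in that comparison, 10.8% higher and 8.78% lower. The median over the members was 0.22 log2 units, against 0.02 over all genes. With AGN192403 against vehicle 4 of 10 were higher (Il1a, Csf2, Tnf and Lta), 4 were lower (Lif, Ifng, Inhba and Il3) and Il2 and Fasl were not called. Of all genes 34.7% were called there, 16.4% higher and 18.3% lower, and the median over the members was -0.16, against -0.01. Scaling by library totals in place of TMM called 2684 genes higher and 1929 lower with AGN192403, against 2158 and 2412, and changed no call of a member. In KO against AGN192403 cells 6 of 10 were higher (Inhba, Lif, Il2, Il3, Ifng and Il1a) and Tnf was lower, with 20.3% of all genes called (13.0% higher, 7.34% lower) and medians of 0.41 and 0.02. By library totals that split was 1204 higher and 1500 lower genes, against 1706 and 967. Both perturbations were set against the same 2 control libraries, so their values are given side by side and are not independent of each other. In KO against control cells, and in AGN192403 against control cells, the libraries did not overlap for any of the 10 members, which also held for 57.6% and 62.8% of all genes. Between KO and AGN192403 cells 8 of 10 members had no overlap, against 55.8% of all genes.

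**Figure D4:**
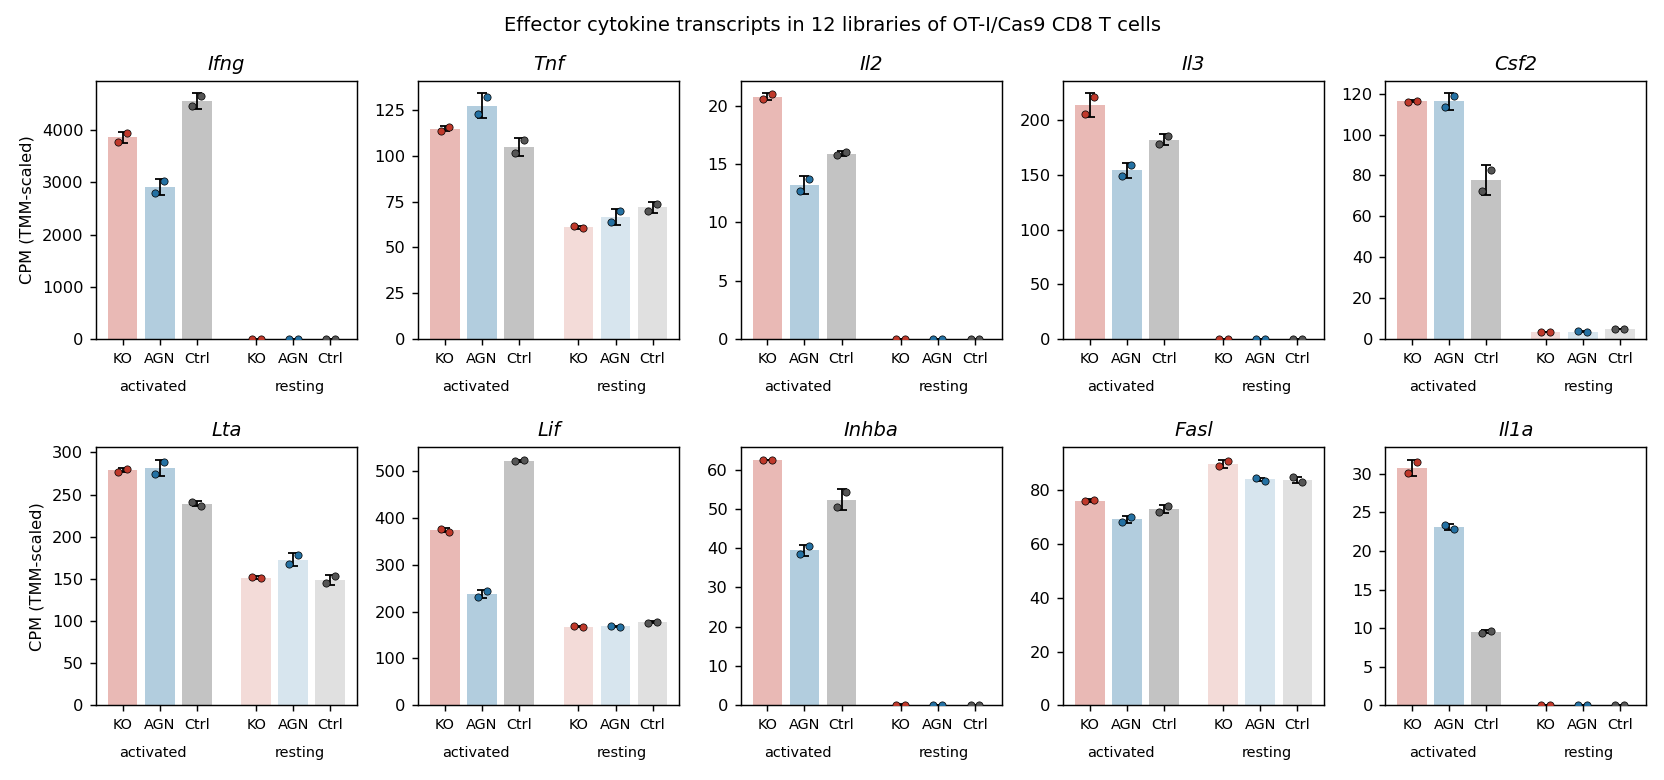
Level (TMM-scaled CPM, axis from 0) of the 10 effector cytokine genes in KO, AGN192403 and control cells, activated and then resting. Points are libraries, bars are means and error bars are SD (n = 2). Il1a stands at 30 and 31.5 CPM in activated KO cells against 9.41 and 9.65 CPM in activated control cells, and Lif is highest in activated control cells.

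Ifng, which encodes interferon gamma, had 3783 and 3939 CPM in activated KO cells, 2802 and 3018 CPM in activated AGN192403 cells and 4457 and 4664 CPM in activated control cells. Both perturbed groups were below the control libraries, and the AGN192403 libraries were the lowest. The log2 change was -0.24 ± 0.0399 in KO cells (SE, adjusted p = 7.95e-05) and -0.65 ± 0.0401 with AGN192403 (adjusted p = 2.10e-12). KO cells stood 0.41 ± 0.0401 log2 units above AGN192403 cells (adjusted p = 5.27e-08).

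Among the TNF family, Tnf had 114 and 116 CPM in activated KO cells, 123 and 132 CPM with AGN192403 and 101 and 109 CPM in control cells. It encodes the inflammatory cytokine TNF and was the one member called with AGN192403 but not in KO cells while higher in both. Its log2 change was 0.13 in KO cells (95% interval 0.02 to 0.24, adjusted p = 0.0933) and 0.28 ± 0.052 with AGN192403 (adjusted p = 0.000105). KO cells were below AGN192403 cells, at -0.16 ± 0.0512 (adjusted p = 0.0315), which was lost without activated KO library 1 (adjusted p = 0.114) or activated AGN192403 library 2 (adjusted p = 0.281) and in DESeq2 (adjusted p = 0.178). Without an expression filter Tnf was called in KO cells, at 0.16 (adjusted p = 0.0482), and its KO against AGN192403 difference was not, at -0.12 (adjusted p = 0.184).

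Lta, whose product lymphotoxin alpha is secreted as a trimer or held on the membrane by lymphotoxin beta, had 277 and 281 CPM in activated KO cells, 275 and 289 CPM with AGN192403 and 242 and 237 CPM in control cells. The KO and AGN192403 libraries overlapped, and both lay above the control libraries. The log2 changes were 0.22 ± 0.0429 in KO cells (adjusted p = 0.00048) and 0.24 ± 0.0429 with AGN192403 (adjusted p = 9.15e-05), and KO minus AGN192403 was -0.02 (95% interval -0.10 to 0.07, adjusted p = 0.84). Fasl had 75.9 and 76.5 CPM in KO cells, 68.1 and 70.2 CPM with AGN192403 and 72.1 and 74.2 CPM in control cells. The groups did not overlap, yet none of the differences was called, with 0.06 in KO cells (95% interval -0.05 to 0.16), -0.08 with AGN192403 (-0.18 to 0.03) and 0.14 between KO and AGN192403 cells (0.03 to 0.24, adjusted p = 0.0575).

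Among the growth factors, Il2, which encodes the T cell growth factor that was also in the medium, had 20.6 and 21 CPM in activated KO cells, 12.6 and 13.7 CPM with AGN192403 and 15.7 and 16 CPM in control cells. KO libraries were above and AGN192403 libraries below the control libraries, without overlap. The log2 change was 0.39 ± 0.102 in KO cells (adjusted p = 0.0095) and -0.26 with AGN192403 (95% interval -0.49 to -0.03, adjusted p = 0.075). The KO call rested on 528 KO counts and 380 control counts and was lost without activated KO library 1 (adjusted p = 0.0606), without activated control library 1 (adjusted p = 0.0720) and in DESeq2 (adjusted p = 0.304). KO cells stood 0.65 ± 0.106 log2 units above AGN192403 cells (adjusted p = 0.000109), a call that held with each library left out in turn (adjusted p 0.000256 to 0.00449).

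Il3, the gene of a growth factor for mast cells, basophils and blood progenitors, had 206 and 221 CPM in activated KO cells, 149 and 159 CPM with AGN192403 and 179 and 186 CPM in control cells. It took the same order as Il2, with KO libraries highest and AGN192403 libraries lowest. The log2 change was 0.22 ± 0.0458 in KO cells (adjusted p = 0.000768), -0.24 ± 0.0472 with AGN192403 (adjusted p = 0.000259) and 0.46 ± 0.0465 between KO and AGN192403 cells (adjusted p = 7.38e-08). Its neighbor Csf2, which encodes GM-CSF, a growth factor of myeloid cells, had 116 and 116.7 CPM in KO cells, 113 and 119 CPM with AGN192403 and 72.4 and 82.9 CPM in control cells. Here the KO and AGN192403 libraries overlapped and both stood above the control libraries. The log2 change was 0.58 ± 0.0548 in KO cells (adjusted p = 2.47e-08) and 0.58 ± 0.055 with AGN192403 (adjusted p = 4.92e-09), and the 95% interval of the KO minus AGN192403 difference was -0.11 to 0.11. Of 6 markers of mast cells and basophils, which also transcribe both genes, Cpa3, Fcer1a, Gata2 and Ms4a2 had at most 2 counts in each activated group, and Mcpt8 had 12, 6 and 16 counts in KO, AGN192403 and control cells. The sixth, Kit, had group means of 58.5, 53.4 and 45.4 CPM and carried nearly all of the sum of the list, which was 56.6 to 61.4 CPM in KO, 53.0 to 54.2 CPM in AGN192403 and 45.0 to 47.2 CPM in control libraries. Among activated cells Kit was thus higher where Csf2 was, by 0.36 in KO cells (adjusted p = 0.000137) and 0.24 with AGN192403 (adjusted p = 0.0047). At rest Kit had 74.9, 49.5 and 78.2 CPM in KO, AGN192403 and control cells, where Csf2 had 3.53, 3.58 and 4.81 CPM. What part Kit-expressing cells had in the result was not tested.

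Lif, the gene of leukemia inhibitory factor, a cytokine of the IL-6 family, fell the most of the 10. It had 377 and 371 CPM in activated KO cells, 232 and 245 CPM with AGN192403 and 521 and 524 CPM in control cells. The 3 groups stood apart, with control libraries highest and AGN192403 libraries lowest. Its log2 change was -0.48 ± 0.038 in KO cells (adjusted p = 1.09e-09) and -1.13 ± 0.0392 with AGN192403 (adjusted p = 5.52e-17), and KO cells stood 0.65 ± 0.0396 above AGN192403 cells (adjusted p = 2.04e-11).

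Inhba had 62.4 and 62.5 CPM in activated KO cells, 38.5 and 40.5 CPM with AGN192403 and 50.4 and 54.3 CPM in control cells. KO libraries lay above and AGN192403 libraries below those of control cells, as for Il2 and Il3. Its log2 change was 0.25 ± 0.0675 in KO cells (adjusted p = 0.00862) and -0.40 ± 0.0731 with AGN192403 (adjusted p = 0.000108), and KO minus AGN192403 was 0.66 ± 0.0707 (adjusted p = 3.20e-07). The KO call was lost without activated KO library 1 (adjusted p = 0.0733), without activated control library 1 (adjusted p = 0.130) and in DESeq2 (adjusted p = 0.229).

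Il1a, the gene of the alarmin IL-1 alpha, rose the most of the 10 in both perturbations. It had 30 and 31.5 CPM in activated KO cells, 23.4 and 22.9 CPM with AGN192403 and 9.41 and 9.65 CPM in control cells, from 779, 559 and 228 counts per group. All KO and AGN192403 libraries lay far above the control libraries, with the KO libraries highest. In log2 units the change was 1.68 ± 0.103 in KO cells, or 3.21-fold (adjusted p = 1.32e-10), and 1.28 ± 0.109 with AGN192403, or 2.42-fold (adjusted p = 3.80e-09). KO cells stood 0.41 ± 0.087 above AGN192403 cells (adjusted p = 0.00161), a call that DESeq2 did not make (adjusted p = 0.140).

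As IL-1 alpha is also a product of myeloid cells, their 13 markers were read beside it. They summed to 138 to 143 CPM in activated KO libraries, 153 to 165 CPM with AGN192403 and 99.8 to 106 CPM in control libraries. The sum was above that of control cells in both perturbations, as Il1a was. It was highest with AGN192403, whereas Il1a was highest in KO cells. Cd74, at 76.8, 83.8 and 45.7 CPM, and Cst3, at 59.9, 71.2 and 53.1 CPM in KO, AGN192403 and control cells, made up most of that sum. Cd68 had 3.54, 3.76 and 3.93 CPM in these groups. At rest, where Il1a had 0 counts, the 13 markers summed to means of 61.1, 58.4 and 66.7 CPM in KO, AGN192403 and control cells. Of the 13, 9 had at most 2 counts in each activated group, among them Lyz2, Csf1r, Adgre1, Spi1 and Itgam. What part other cells had in the rise of Il1a was not tested beyond these values. Il1b, the neighbor of Il1a that myeloid cells transcribe with it, had 0 counts in all 12 libraries. The antisense gene Gm14023, which overlaps an exon of Il1a, had 19, 21 and 20 counts in activated KO, AGN192403 and control cells and 29, 26 and 18 counts in the resting ones, where Il1a had 0.

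**Figure D5:**
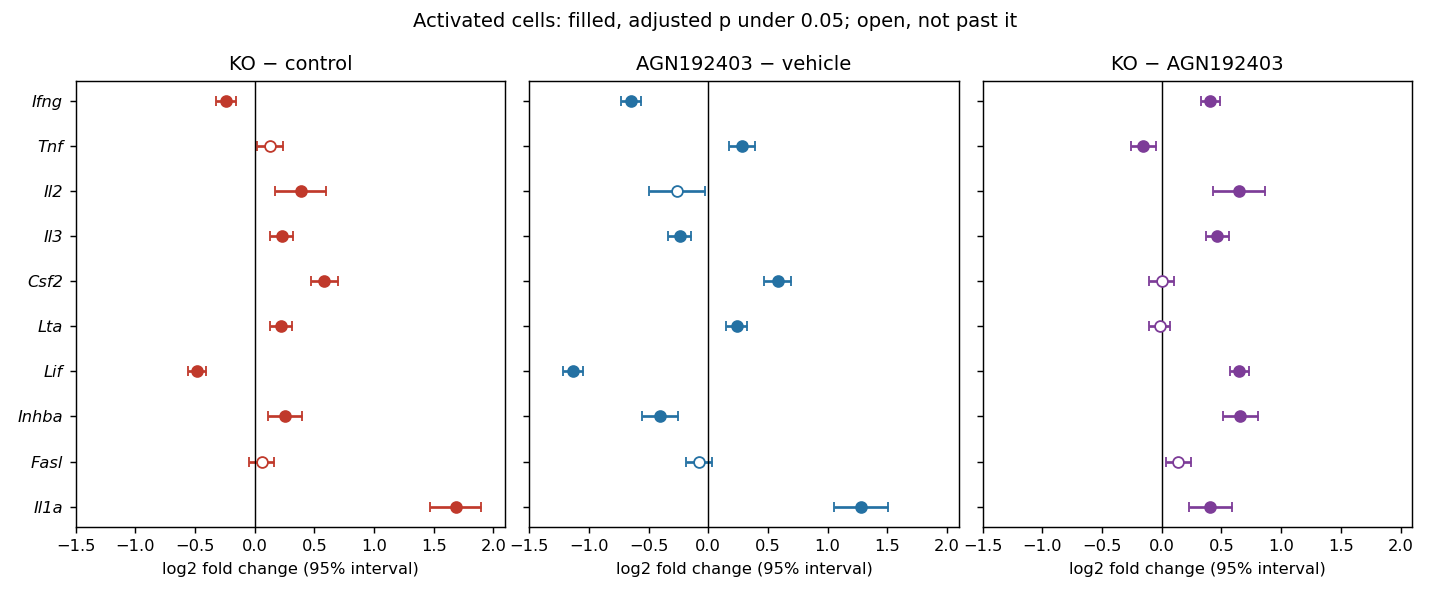
Log2 fold change with 95% interval of the 10 effector cytokine genes in activated cells, for KO minus control, AGN192403 minus vehicle and KO minus AGN192403 (filled points are called at an adjusted p under 0.05). Il1a lies furthest right at 1.68 and 1.28 in the comparisons with control cells, Lif furthest left at -0.48 and -1.13, and the intervals of Csf2 and Lta span 0 between KO and AGN192403 cells.

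At rest, few of the members differed. Of the 6 with more than a handful of reads, 1 was called in KO against control cells, where 7.44% of all genes were called (2.81% higher, 4.63% lower). This was Tnf, with 61.7 and 60.6 CPM in resting KO cells and 69.7 and 74.0 CPM in resting control cells. The KO libraries lay below those of control cells, and the log2 change was -0.23 ± 0.061 (adjusted p = 0.0176). It was lost without resting KO library 1 (adjusted p = 0.181), resting KO library 2 (adjusted p = 0.167) or resting control library 2 (adjusted p = 0.183), and in DESeq2 (adjusted p = 0.186). Of all genes, 370 were called higher and 609 lower there, and 521 and 504 with library totals.

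Resting AGN192403 cells also had 1 of 6 members called, with 25.4% of all genes called (11.6% higher, 13.7% lower). Lta had 168 and 178 CPM with AGN192403 and 145 and 153 CPM in control cells, without overlap, and rose by 0.21 ± 0.0466 log2 units (adjusted p = 0.0012), a call lost without resting AGN192403 library 2 (0.17, adjusted p = 0.0641). By library totals the split over all genes there was 1991 higher and 1426 lower, against 1533 and 1808. Ifng had 6.67 and 6.33 CPM in resting KO cells, 7.40 and 6.29 CPM with AGN192403 and 8.79 and 7.49 CPM in control cells, a small share of the activated level. All perturbed libraries lay below the control libraries, but the changes of -0.30 in KO cells (95% interval -0.56 to -0.04, adjusted p = 0.254) and -0.26 with AGN192403 (-0.52 to 0.01) were not called. Csf2 had 3.46 and 3.6 CPM in resting KO cells, 3.80 and 3.36 CPM with AGN192403 and 4.70 and 4.92 CPM in control cells. It too was below control in every perturbed library, opposite to its place after activation, and was not called, at -0.46 (-0.87 to -0.05, adjusted p = 0.188) in KO cells and -0.44 (-0.86 to -0.03, adjusted p = 0.116) with AGN192403. Lif had 166.9 to 178 CPM and Fasl 83.2 to 91.0 CPM over the 6 resting libraries.

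The change on activation was then compared between perturbed and control cells, as an interaction term over the 6 genes read in both states. Csf2 and Tnf were called with a larger response and Lif with a smaller one, for the KO and for AGN192403 alike. Each term holds the difference at rest as well as that after activation. For Csf2 these were -0.46 and 0.58 in KO cells and -0.44 and 0.58 with AGN192403. For Tnf they were -0.23 and 0.13 in KO cells and -0.10 and 0.28 with AGN192403. Of these resting differences only that of Tnf in KO cells was called, and of the activated ones all but that of Tnf in KO cells. Of all genes 4.96% were called for the KO (3.07% higher, 1.89% lower) and 19.7% for AGN192403 (8.62% higher, 11.1% lower). The response of Csf2 was larger than in control cells by 1.04 ± 0.207 log2 units in KO cells (adjusted p = 0.00265) and by 1.03 ± 0.21 with AGN192403 (adjusted p = 0.000946). That of Tnf was larger by 0.36 ± 0.0806 (adjusted p = 0.0069) and 0.39 ± 0.08 (adjusted p = 0.0011), and that of Lif changed by -0.40 ± 0.0572 (adjusted p = 7.99e-05) and -1.06 ± 0.0581 (adjusted p = 4.54e-12). The response of Ifng differed by 0.06 in KO cells (95% interval -0.21 to 0.34) and by -0.39 with AGN192403 (-0.67 to -0.11, adjusted p = 0.0653), neither called. The AGN192403 value was called without activated AGN192403 library 2 (-0.45, adjusted p = 0.0268), activated control library 1 (-0.43, adjusted p = 0.0471) or resting control library 1 (-0.50, adjusted p = 0.0486). In KO cells Tnf was lost without activated control library 1 (adjusted p = 0.0504), resting KO library 1 (adjusted p = 0.0722), resting KO library 2 (adjusted p = 0.0675) or resting control library 2 (adjusted p = 0.0640) and in DESeq2 (adjusted p = 0.0818), and Csf2 without resting KO library 1 (0.97, adjusted p = 0.0603). Lta, at 0.20 in KO cells (0.07 to 0.33, adjusted p = 0.0757), was called when only the compared libraries were fitted (adjusted p = 0.0433).

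The receptors of these cytokines were read next, 16 of 20 listed genes being tested. For these and the lists after them, the shares and medians over all genes in KO and AGN192403 cells are those given above, 10.8% and 16.4% higher, 8.78% and 18.3% lower, with medians of 0.02 and -0.01. In activated cells 3 were higher and 1 lower in KO cells, and 6 were higher and 2 lower with AGN192403, with medians of 0.07 and 0.17. Il2ra, the inducible alpha chain of the IL-2 receptor, had a group mean of 4971 CPM in KO cells, 4214 CPM with AGN192403 and 5665 CPM in control cells, and changed by -0.19 ± 0.0317 (adjusted p = 9.22e-05) and -0.43 ± 0.0318 (adjusted p = 6.98e-11). Its partner Il2rb fell by 0.27 with AGN192403 (adjusted p = 8.91e-07) and was at -0.08 in KO cells (adjusted p = 0.0949). Fas, the receptor of the Fasl product, rose by 0.33 ± 0.0809 in KO cells (adjusted p = 0.00447) and 0.40 ± 0.0806 with AGN192403 (adjusted p = 0.000304), and Il3ra rose by 0.41 ± 0.121 (adjusted p = 0.0161) and 0.63 ± 0.118 (adjusted p = 0.000148). Ifngr1, a chain of the interferon gamma receptor that fell by 2.19 log2 units on activation of control cells, rose by 0.17 ± 0.0469 in KO cells (adjusted p = 0.011) and was at -0.02 with AGN192403 (adjusted p = 0.742). Csf2rb, the chain shared by the IL-3 and GM-CSF receptors, was low at 0.347 CPM in KO cells, 2.37 CPM with AGN192403 and 0.418 CPM in control cells, and rose by 2.49 ± 0.476 with AGN192403 (adjusted p = 0.000203). Csf2rb shares sequence with Csf2rb2, so that the split of reads between them is uncertain.

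Of the antagonists and feedback inhibitors, 8 of 9 were tested, and 1 was higher and 2 lower in each perturbation, with medians of -0.11 in KO cells and -0.23 with AGN192403. Il1r2, the decoy receptor of IL-1, had 19.7 CPM in activated KO cells, 18.3 CPM with AGN192403 and 32.4 CPM in control cells, and changed by -0.70 ± 0.0897 (adjusted p = 2.62e-06) and -0.82 ± 0.0918 (adjusted p = 8.79e-08). The decoy was lower in the activated cells in which Il1a was higher. It was also lower at rest, where Il1a had 0 counts, at -1.31 in KO cells (adjusted p = 0.00489) and -1.01 with AGN192403 (adjusted p = 0.0094). Its response to activation was not called (adjusted p = 0.336 and 0.746). In activated cells the signaling receptor Il1r1 was not called in KO cells (0.29, adjusted p = 0.491) or with AGN192403 (-0.36, adjusted p = 0.348). Socs3, which restrains cytokines of the LIF and IL-6 family, had 44.0 CPM in KO cells, 25.7 CPM with AGN192403 and 70.8 CPM in control cells. It changed by -0.68 ± 0.0722 (adjusted p = 1.68e-07) and -1.46 ± 0.0803 (adjusted p = 2.35e-13), with the groups in the same order as for Lif. Cish, a STAT5-induced inhibitor, rose by 0.16 (adjusted p = 0.00938) and 0.20 (adjusted p = 0.000392).

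Genes for the processing and release of these proteins, 14 of 14 tested, had medians of 0.04 in KO cells and 0.07 with AGN192403. In KO cells 4 were higher (Vamp8, Capns1, Unc13d and Adam10, by 0.13 to 0.22) and Rab27a was lower at -0.13 (adjusted p = 0.0485), and with AGN192403 3 were higher and Rab27a was lower at -0.41 (adjusted p = 7.53e-08). Unc13d and Rab27a serve the fusion of cytotoxic granules. Adam17, the protease that sheds TNF, was at 0.05 in KO cells (adjusted p = 0.497) and 0.07 with AGN192403 (adjusted p = 0.242), and Capns1, the small subunit of the calpains that cut the IL-1 alpha precursor, rose by 0.19 ± 0.048 (adjusted p = 0.00517) and 0.14 ± 0.0481 (adjusted p = 0.024). With median-ratio size factors 2 genes of this list, not 4, were higher in KO cells, and with library totals 7 were higher with AGN192403.

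All 28 listed transcription factors of cytokine genes were tested. In KO cells 3 were higher and 7 lower, and with AGN192403 8 were higher and 11 lower, with medians of -0.0083 and -0.05. Batf and Fosl2, partners in AP-1 dimers, fell by 0.33 (adjusted p = 0.000814) and 0.29 (adjusted p = 1.56e-05) in KO cells and by 0.65 (adjusted p = 5.05e-08) and 0.64 (adjusted p = 8.28e-12) with AGN192403, and both were higher in KO than in AGN192403 cells. Runx3, a factor of the CD8 lineage, fell by 0.30 in KO cells and 0.32 with AGN192403. On the other side Maf rose by 0.36 and 0.49, Eomes, a T-box factor, by 0.33 and 0.46, and Nfatc1 by 0.26 and 0.38. Egr2 and Egr3, induced by the T cell receptor, rose by 0.64 and 0.48 with AGN192403 and were not called in KO cells (0.18 and 0.17). Tbx21, the T-box factor that drives Ifng, was at 0.10 in KO cells (adjusted p = 0.253) and -0.05 with AGN192403 (adjusted p = 0.611). With library totals the AGN192403 count was 11 higher and 9 lower.

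Of 18 genes for the decay and translation of cytokine mRNAs, 1 was higher and 5 lower in KO cells, and 3 were higher and 6 lower with AGN192403, with medians of -0.05 and -0.09. Zc3h12d, a member of the Regnase family, fell by 0.43 ± 0.0657 in KO cells (adjusted p = 2.52e-05) and 0.76 ± 0.0691 with AGN192403 (adjusted p = 2.32e-09), and Zfp36l2 fell by 0.33 (adjusted p = 9.70e-05) and 0.41 (adjusted p = 2.07e-06). Rc3h1, which encodes Roquin-1, fell by 0.33 in KO cells (adjusted p = 0.000449) and was at -0.07 with AGN192403 (adjusted p = 0.392). Pdcd4, which restrains translation, rose by 0.33 and 0.37. Zfp36, the gene of tristetraprolin, fell by 2.08 log2 units on activation of control cells and was not called in KO cells (0.08) or with AGN192403 (-0.07).

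Cytokines outside the 10 formed the widest list. Of 35 named, 34 were in the table and 30 were tested, with 8 higher and 7 lower in KO cells and 7 higher and 10 lower with AGN192403 and medians of 0.04 and -0.13. Il21 had 3.01 CPM in activated KO cells, 0.755 CPM with AGN192403 and 8.61 CPM in control cells, and changed by -1.52 ± 0.204 (adjusted p = 7.55e-06) and -3.51 ± 0.275 (adjusted p = 5.19e-10). Il22 had 35.1, 10.7 and 43.2 CPM in KO, AGN192403 and control cells and changed by -0.31 ± 0.0763 (adjusted p = 0.00591) and -2.00 ± 0.0956 (adjusted p = 2.29e-13), so that KO cells stood 1.70 ± 0.0985 above AGN192403 cells. Il24 changed by -0.99 and -1.54 and Il10, an inhibitory cytokine, by -0.88 and -1.48. Among those that rose, Areg, the EGF family growth factor amphiregulin, had 9.58 CPM in KO cells, 10.9 CPM with AGN192403 and 3.18 CPM in control cells (1.56 ± 0.19, adjusted p = 1.69e-06, and 1.78 ± 0.185, adjusted p = 4.05e-08). The TNF family ligands Tnfsf4, Tnfsf8 and Tnfsf11 rose by 0.43 to 0.46 in KO cells and by 0.37 to 0.56 with AGN192403. Between KO and AGN192403 cells 10 of the 30 were higher and 1, Csf1, was lower at -0.85 (adjusted p = 0.000422), against 13.0% and 7.34% of all genes. With library totals 9 were higher and 4 lower, and with median-ratio size factors 10 and 2.

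Of 18 listed target genes of interferon gamma 17 were tested. In activated cells 9 were higher and 2 lower in KO cells and 7 were higher and 3 lower with AGN192403, in both of which Ifng was lower. Their medians were 0.15 and 0.10, and with library totals 8 were higher and 1 lower with AGN192403. Cxcl10, a chemokine, had 12 CPM in KO cells, 8.12 CPM with AGN192403 and 3.39 CPM in control cells and rose by 1.83 ± 0.174 (adjusted p = 3.16e-08) and 1.26 ± 0.189 (adjusted p = 7.96e-06). The GTPase gene Iigp1 rose by 1.07 ± 0.104 and 1.49 ± 0.0988 and the transcription factor gene Irf1 by 0.45 and 0.44. Cd274, which encodes PD-L1, fell by 0.18 and 0.16. On activation of control cells, in which Ifng rose 565-fold, 14 of the 17 fell and 3 rose, where 37.4% of all genes were called lower and 36.4% higher, with Iigp1 at -4.13 and Irf1 at -2.63.

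The genes outside the 10 whose log2 CPM ran most like that of Ifng over the 12 libraries were Atp2a2, a calcium pump, Polr1b, a subunit of RNA polymerase I, and Hsph1, a chaperone, each at a Pearson r of 0.999. For Il2 they were Polr1b, Ccdc50 and Atp2a2, also at 0.999. For Tnf they were Casp4 (0.991), Tmem184b (0.989) and Havcr2 (0.989), the last encoding the receptor TIM-3. These values are descriptions over 12 libraries, 6 activated and 6 resting, and all these genes share a step between the 2 states.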

How the data were processed

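Groups and replicate numbers of the 12 libraries were taken from the labels. The authors deposited raw counts of reads per gene. Their processing notes name the build GRCm38, the aligner STAR 2.6.0c and the counter HTSeq, while another version of STAR stands in the methods, and the strand setting of the counter is not given in the sources used here. Genes were kept by filterByExpr (13167 genes, 99.9% of counts), scaled by TMM (factors 0.976 to 1.02) and fitted with 1 mean per group over all 12 libraries by the quasi-likelihood test of edgeR 4.0.16 in R 4.3.3, with 6 residual degrees of freedom. Errors of log2 fold changes are SE and intervals are 95%, and calls were made at 0.05 after Benjamini-Hochberg adjustment over all genes tested. Log2 CPM for likeness between genes used a prior count of 2. Total counts of 9089350 to 16481840 limit what low genes can show, and intervals of count ratios are exact and cover counting error only. The fit was tested first on simulated data, with the same spread for all genes and changes planted in activated KO cells. The changed genes had a mean of at least 5 CPM, and the groups otherwise shared 1 mean per gene, without a step on activation. The fit called 52% of 1.2-fold, 90% of 1.5-fold and 100% of 2-fold changes, so that a small change may go uncalled. It also called 11 unchanged genes among the 12822 genes fitted. Recovery of genes with fewer reads was not tested.

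The 10 members and the 7 gene lists around them were chosen with earlier results of these data known. From each list the text names up to 3 called genes of each direction with the largest change, and partners of the members, not all of them printed, and the 3 genes most like Ifng, Il2 and Tnf. Tbx21, Tnfsf4 and Tnfsf8 were named after their values were seen. The alternatives were the unfiltered table, a minimum of 5 CPM in 2 libraries, median-ratio size factors, library totals, a replicate block, fits of the compared libraries only, leaving out each library, and DESeq2 1.42.0. Over 15 pairs of groups differences between replicates correlated at -0.0051 to 0.239, 3 of them above 0.1, so replicate numbers were not used as pairs. Some genes that overlap members are not analysed here.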

Additional observations from a re-analysis of the deposited data

Results flagged for a closer look

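The activation response of 3 effector cytokine genes differed between perturbed and control cells by the interaction term of the edgeR fit. For Csf2 the response was larger by 1.04 ± 0.207 log2 units in KO cells (SE, adjusted p = 0.00265) and by 1.03 ± 0.21 with AGN192403 (adjusted p = 0.000946), with 3.36 to 4.92 CPM in the 6 resting libraries. For Tnf it was larger by 0.36 ± 0.0806 in KO cells (adjusted p = 0.0069) and by 0.39 ± 0.08 with AGN192403 (adjusted p = 0.0011). Differences at rest enter these terms, -0.46 and -0.44 for Csf2 and -0.23 and -0.10 for Tnf in KO and AGN192403 cells. For Lif the difference was -0.40 ± 0.0572 in KO cells (adjusted p = 7.99e-05) and -1.06 ± 0.0581 with AGN192403 (adjusted p = 4.54e-12). In KO cells the Tnf call was lost in DESeq2 (adjusted p = 0.0818) and without activated control library 1, resting KO library 1, resting KO library 2 or resting control library 2 (adjusted p 0.0504 to 0.0722), and the Csf2 call without resting KO library 1 (adjusted p = 0.0603). Both perturbations were compared with the same control libraries. With 2 libraries a group, no single library could be judged as an outlier.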

How the results depend on the processing

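Of 50 called results on single members, 42 kept direction and call under every alternative and none changed direction. The 50 include the changes between activated and resting cells, many of them large, and all of these were kept. Every call that was lost concerned KO or AGN192403 cells against another condition, or a difference in response. DESeq2 called fewer genes in all, 1355 against 2583 in activated KO, 2884 against 4570 in activated AGN192403, 1441 against 2673 between KO and AGN192403, 366 against 979 in resting KO and 1834 against 3341 in resting AGN192403 cells, and for the differences in response 307 against 653 and 1395 against 2592. It called 0 of 6 members in resting KO cells, against 1. The cause was not tested. With 1 library left out these counts ran from 1538 to 2064 in activated KO, 1583 to 2804 between KO and AGN192403, 317 to 806 in resting KO and 1861 to 2577 in resting AGN192403 cells and 318 to 473 for the KO response; where 1 library of a group was left, its spread was taken from the other groups. The number of members called was then 0 to 1 in resting KO, 0 to 1 in resting AGN192403 cells and 1 to 3 for the KO response.

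Directions turned in uncalled results near 0 alone. Between KO and AGN192403, Csf2 was at 0.035 without a filter and from -0.051 to 0.039 with 1 library left out, and Lta at 0.017 and from -0.068 to 0.023. In resting cells Lta ran from -0.016 to 0.066 in the KO, and Fasl with AGN192403 was at -0.0042 with the 5 CPM filter, -0.012 with median-ratio factors, -0.0082 in DESeq2 and from -0.013 to 0.015 with 1 library left out. For the responses, Ifng in the KO ran from -0.042 to 0.19, and Lta with AGN192403 was at -0.0064 without a filter and ran from -0.020 to 0.092.

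With replicate number as a block, 4 of 73 results on members changed. Tnf in activated KO cells (0.13, adjusted p = 0.0338), Fasl between KO and AGN192403 (0.14, adjusted p = 0.0459) and the response of Lta in the KO (0.20, adjusted p = 0.0426) passed the threshold, and Csf2 between KO and AGN192403 turned to 0.0082. With library totals 14 of 60 levels per length moved by more than the spread between libraries. Of 60 alternatives for the folds with few resting reads 20 moved, all with a resting library left out. Depth limits Il2, Il1a, Inhba and Il3 at rest to bounds or wide intervals.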
